A study of Mus musculus with 6 samples.

Results

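The Wnt genes of the mouse prefrontal cortex (PFC) were examined in 6 RNA sequencing libraries: the Wnt ligands, their Frizzled receptors, the secreted antagonists of the pathway and a small set of core signalling genes. Members were chosen by name from the deposited count tables, as every gene listed as Wnt, Fzd, Sfrp or Dkk plus Frzb, Wif1, Lrp5, Lrp6, Axin1, Axin2, Lef1, Tcf7l2 and Ctnnb1. The rule found 46 of the 54429 listed genes: 19 ligands, 10 Frizzled receptors, 2 co-receptors, 10 secreted antagonists and 5 intracellular genes. Frzb, a secreted Frizzled-related protein that binds Wnts, was 0.389 times as high in Tau mice as in WT mice, the 1 member difference with an adjusted p under 0.05 (0.00861), and was 1.90 times as high in UNC0642-treated as in vehicle-treated Tau mice (adjusted p = 0.0927). Wnt10a was higher in treated than in untreated Tau mice, Fzd4 was higher and Wnt7a, Wnt5a and Fzd6 were lower in Tau than in WT mice, at unadjusted p-values under 0.05. Both untreated Tau libraries had the female pattern of Xist and Ddx3y and both treated ones the male pattern. Treatment and sex therefore cannot be told apart. The genotype of 1 library labelled WT is in doubt. Without it the log2 fold changes of Wnt5a and Fzd6 were smaller, at -0.41 and -0.37, and no longer passed the threshold of an unadjusted p under 0.05. That of Wnt7a no longer passed it without the other library labelled WT (-0.44) or the Tau replicate 2 library (-0.30). Ctnnb1, which encodes β-catenin, and Lrp6 stayed within 423 to 484 and 100 to 109 CPM (counts scaled to library size) over the 6 libraries.

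Wnts are secreted lipid-modified proteins that bind Frizzled receptors on nearby cells. With the co-receptors Lrp5 or Lrp6, Frizzleds keep β-catenin (Ctnnb1) from being degraded through the Axin complex, so that it can act with Lef1 and Tcf7l2 at target genes, of which Axin2 is a feedback target. Other Wnts signal through planar cell polarity routes that do not need β-catenin. Sfrp proteins, Frzb and Wif1 bind Wnts outside the cell, and most Dkk proteins act at the Lrp co-receptors, which Dkk3 is not known to bind. In the brain the pathway is known for its roles in synapse formation, axon guidance and the growth and barrier properties of vessels.

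The libraries were made from bulk PFC tissue of mice 6 months old, with 2 biological replicates in each of 3 groups. WT mice of the C57BL/6 x C3H background received vehicle (saline with DMSO), PS19 mice received vehicle (Tau + vehicle), and PS19 mice received UNC0642 (Tau + UNC0642). PS19 mice carry a human P301S tau transgene, which the mouse prion protein promoter drives. UNC0642 is an inhibitor of EHMT1 and EHMT2, which dimethylate histone H3 at lysine 9. It was injected intraperitoneally at 1 mg/kg once daily, 3 times, and tissue was collected 24 h after the last injection. No WT mice given UNC0642 were analysed here.

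Total counts ran from 17005664 to 28972176 per library, and of genes with 1 to 10 counts between 65.2% and 68.3% had an even count. The cause was not tested, and low counts may not be independent of each other. Libraries of a group did not always look alike. Prnp, whose promoter drives the transgene, was at 873 CPM in the library labelled WT replicate 2 but at 1652 CPM in the library labelled WT replicate 1, inside the range of 1470 to 1694 CPM of the 4 PS19 libraries. Mapt, the mouse tau gene, was at 449 CPM in the library labelled WT replicate 2, at 576 CPM in the library labelled WT replicate 1 and at 571 to 614 CPM in the PS19 libraries. The genotype of the library labelled WT replicate 1 is therefore in doubt and could not be settled from these counts, and every comparison with WT below, which means the 2 libraries so labelled, carries this doubt. Values without that library are given beside the called differences from WT. Xist was at 191 and 235 CPM in the Tau + vehicle libraries and at 317 CPM in the library labelled WT replicate 2, but at 0.118 to 0.197 CPM in the other 3, while Ddx3y was high in those 3 (95.05 to 101 CPM) and at most 0.644 CPM elsewhere. Both Tau + vehicle libraries thus had the female pattern and both Tau + UNC0642 libraries the male pattern, and treatment and sex cannot be told apart from these 4 libraries alone. A fit with a sex term could be made only because the libraries labelled WT held both patterns. Its sex effect is the difference between those 2 libraries, 1 of them in doubt. Tau is then set in effect against the library labelled WT replicate 2 alone, and treated Tau against replicate 1 alone. The value of treated against untreated Tau carries the difference between the 2. A call held or lost with the sex term is therefore no check separate from leaving out either library, and cannot tell sex apart. The Tau replicate 2 library had a summed level of 7 striatal neuron markers of 226 CPM, against 84.0 to 104 CPM in the others, and of 9 oligodendrocyte markers of 5533 CPM, against 1463 to 2970 CPM. Markers of cortical excitatory neurons summed to 2166 to 2642 CPM in all 6 libraries, and none of the 6 was at 0. In bulk tissue, fewer cells of a type and less RNA per cell cannot be told apart.

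Each role was dominated by 1 or a few genes in all groups. Levels between genes were compared as CPM per kb of exon, averaged over the 6 libraries. Among ligands, Wnt7b held 32.1% of the summed level per kb, followed by Wnt9a with 17.6%, Wnt10a with 11.5%, Wnt4 with 10.98%, Wnt7a with 8.42% and Wnt2 with 7.49%. Wnt7a and Wnt7b are the ligands known for signalling from neural cells to brain vessels. Fzd3, a receptor known from axon guidance and planar cell polarity, held 69.0% of the Frizzled level, well above Fzd1 with 8.94% and Fzd4 with 4.58%. Lrp6 held 94.0% of the co-receptor level. Dkk3, a divergent Dickkopf protein that is abundant in neurons, held 93.1% of the antagonist level, with Frzb at 4.28% and Sfrp1 at 1.84%. Ctnnb1 held 88.8% of the level of the 5 intracellular genes. Lef1 and Tcf7l2, the nuclear partners of β-catenin, were low, at 1.43 to 2.30 CPM and 1.37 to 1.72 CPM per library. Of the 46 members, 39 passed the filter on low counts and 7 did not. Wnt8a and Dkk1 had no count in any library, and Wnt3a, Wnt8b, Wnt11, Dkk4 and Sfrp5 had at most 9 counts in a library. A count of 0 allows up to 3 counts, or 0.104 to 0.176 CPM depending on the library.

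**Figure D1:**
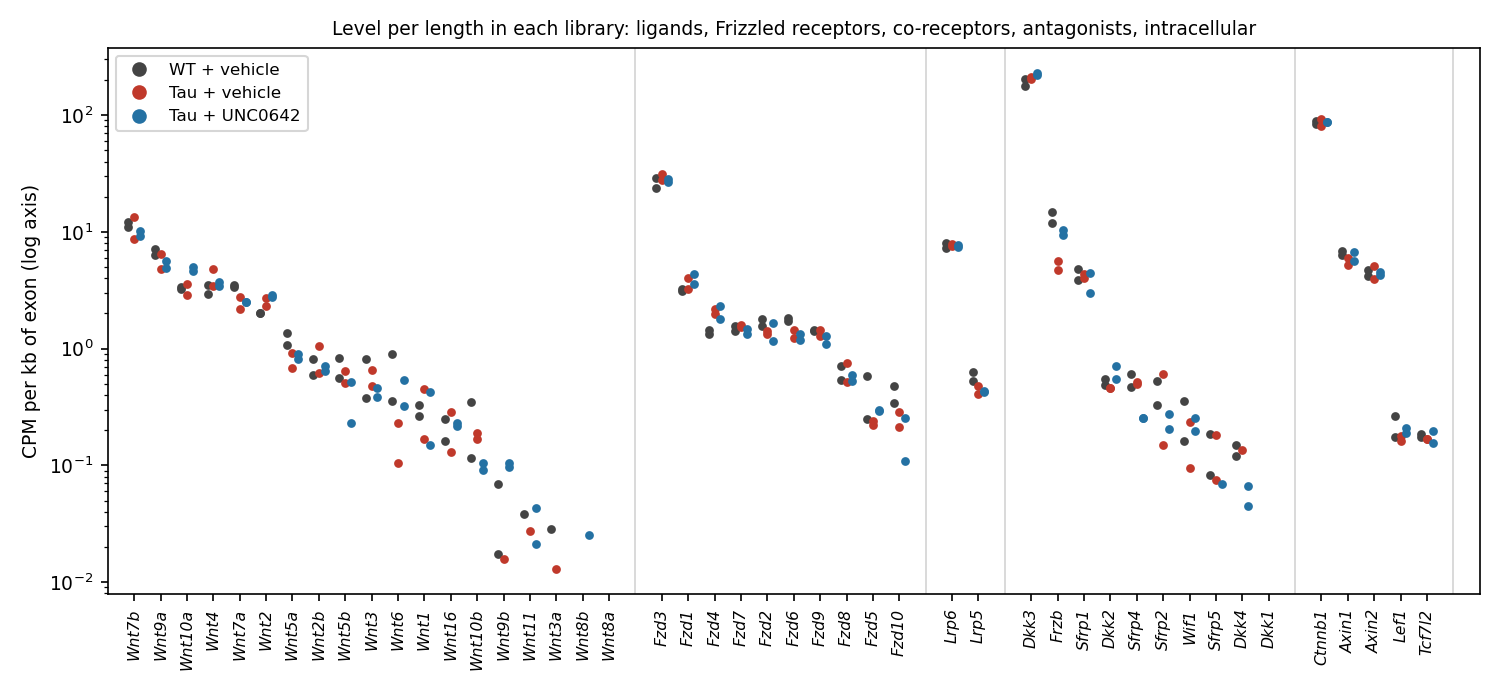
Level of each of the 46 Wnt genes in each library, as CPM per kb of exon on a log axis, with 1 point per library coloured by group and genes ordered by level within role; values of 0 are not drawn. Dkk3, Ctnnb1 and Fzd3 lie highest, and Wnt7b leads the ligands at 8.70 to 13.3 CPM per kb.

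A gene was called when its unadjusted p in edgeR's quasi-likelihood test was under 0.05 and its fold change at least 1.2, the threshold of the study. P-values adjusted over all genes tested are given beside it. Between Tau + vehicle and WT + vehicle, 6 of the 39 tested members were called (15.4%), 1 higher and 5 lower. The share among all 20409 genes tested was 9.81%, with 3.72% higher and 6.1% lower. The median log2 fold change was -0.09 over the members and -0.00 over all genes. Between Tau + UNC0642 and Tau + vehicle, 4 members were called (10.3%, against 7.69% of all genes), 3 higher and 1 lower (3.73% and 3.95% of all genes), with medians of -0.03 and -0.00. Among the 3 higher was Wnt9b, which passed the filter on low counts only through the UNC0642 libraries where it is high, and without it 3 of 38 members (7.89%) were called. Between Tau + UNC0642 and WT + vehicle, 10 members were called (25.6%, against 9.47% of all genes), 3 higher and 7 lower (3.77% and 5.69% of all genes), with medians of -0.17 and -0.01. The first and second comparisons share the Tau + vehicle libraries. The last shares the libraries labelled WT with the first and the UNC0642 libraries with the second, so the 3 comparisons are not independent of each other. After adjustment over all genes, 1 member (Frzb, Tau against WT) had a p under 0.05, as did 0.157% of all genes. None did between treated and untreated Tau (0.0196% of all genes), where 4 members had an unadjusted p under 0.05 and the DESeq2 Wald test called 4. None did between treated Tau and WT (0.216% of all genes), where 11 had an unadjusted p under 0.05 and the DESeq2 Wald test called 4. The counts moved with single libraries. Without the library labelled WT replicate 1, 3, 4 and 8 members were called in the 3 comparisons, and without the Tau replicate 2 library 3, 5 and 11. The last count was 6 without the UNC0642 replicate 2 library. With the sex term the counts were 3, 3 and 6, but 12 of the 20 calls made without it were lost. The counts of treated Tau against untreated Tau and against WT therefore include members that were not called before. The shares of all genes called with a library left out or with the sex term are not given here. Whether the member counts moved with those shares was therefore not tested.

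**Figure D2:**
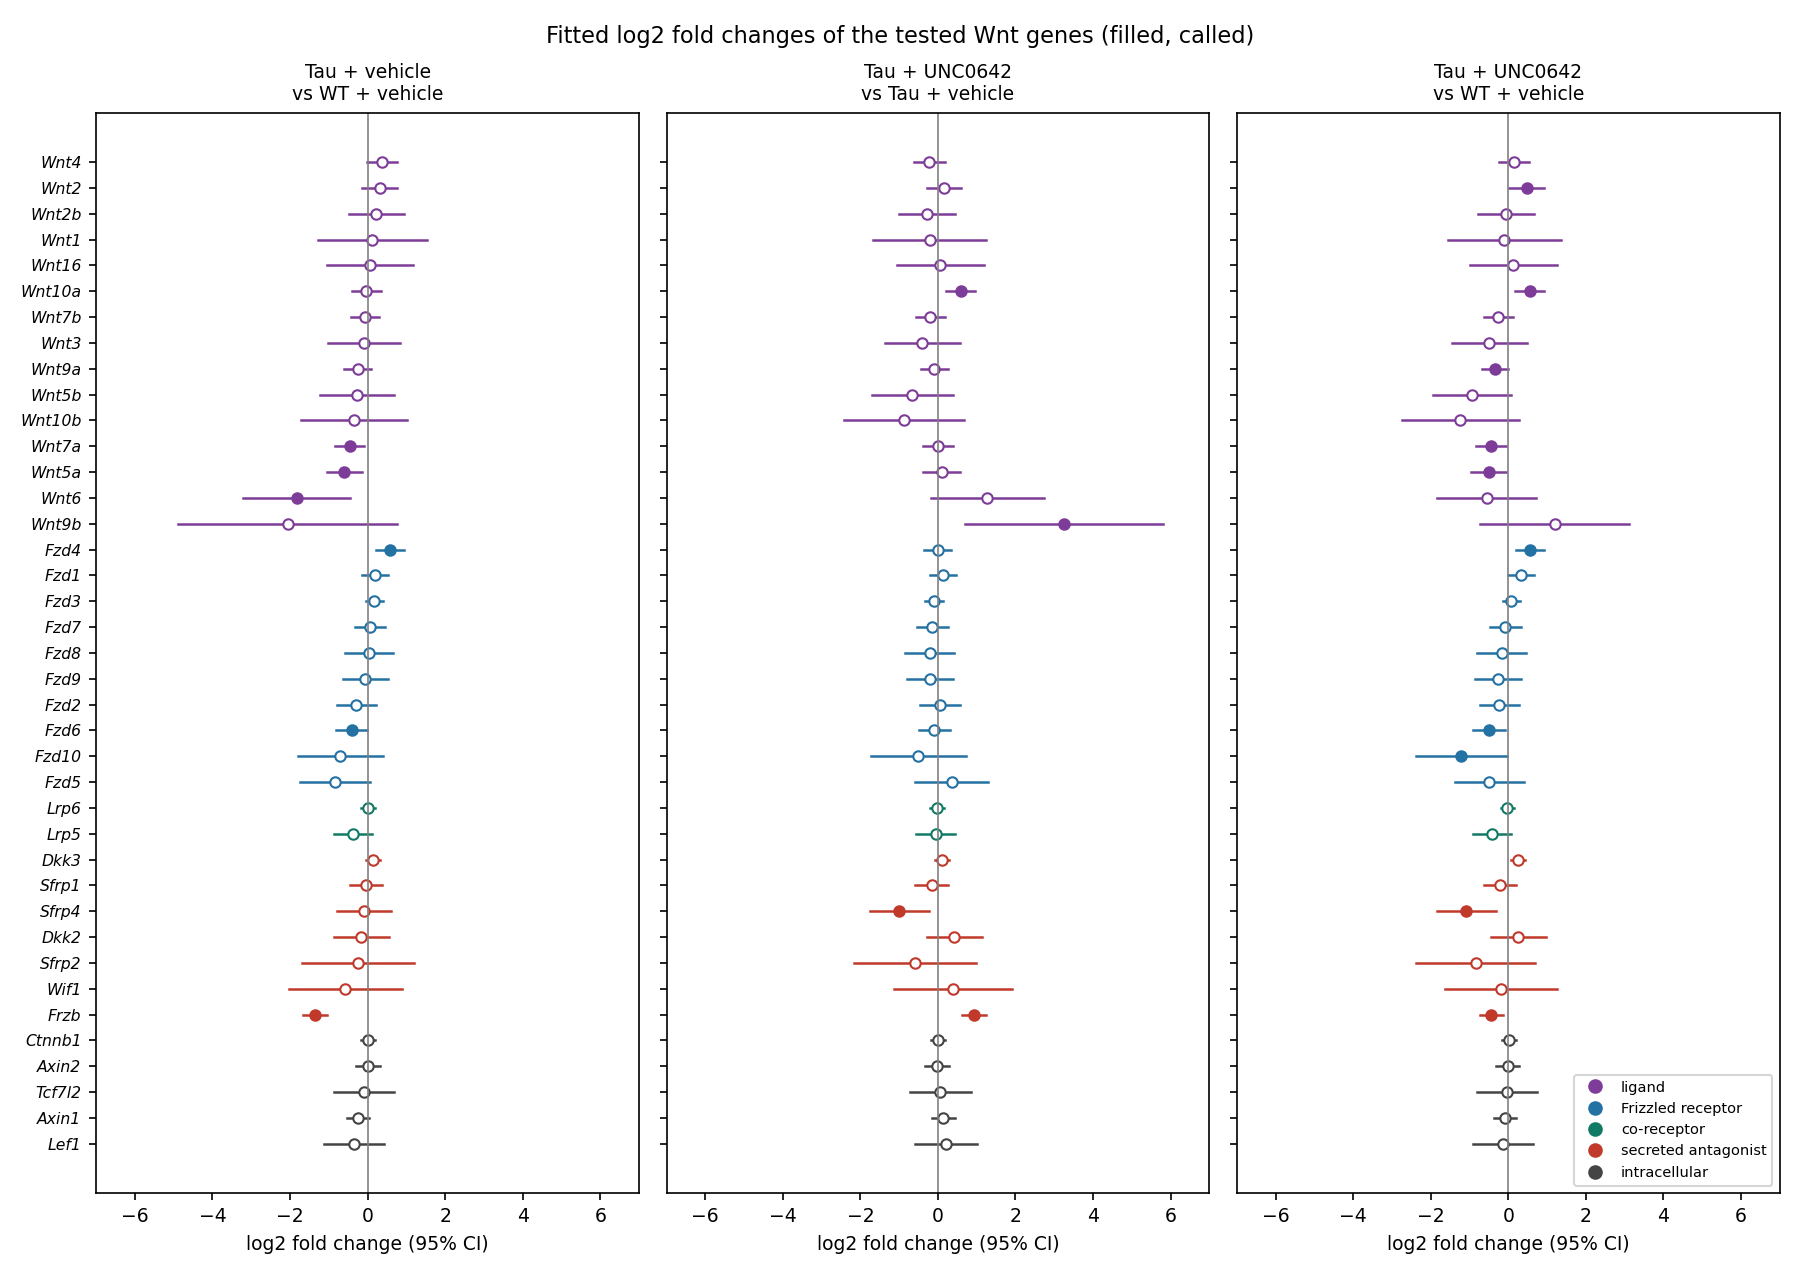
Fitted log2 fold change of each of the 39 tested members with its 95% confidence interval (lines) in the 3 comparisons, coloured by role, with called genes filled. Most intervals cover 0, and Frzb lies to the left of 0 in the first panel (-1.36) and to the right in the second (0.92). Wnt9b is drawn too, but it entered the test only through the UNC0642 libraries, so its points and intervals are a description.

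Markers of neuronal and non-neuronal tissue moved in the same comparisons. All 7 striatal neuron markers were called higher in Tau than in WT, and 6 were called lower in treated than in untreated Tau. Of 9 oligodendrocyte markers, 3 were higher in the first and 2 lower in the second comparison. Of 8 mural markers, 1 was higher and 2 lower in the first, and 3 were lower in the second. Among all genes tested, 9.81% and 7.69% were called in these 2 comparisons. The 18 meningeal fibroblast markers summed to 136 and 180 CPM in the pair labelled WT, 131 and 101 CPM in Tau + vehicle and 127 and 118 CPM in Tau + UNC0642. Of the 17 tested, 7 were lower in Tau than in WT, 1 was higher and 1 lower in UNC0642-treated than in untreated Tau, and 5 were lower in UNC0642-treated Tau than in WT. Among all genes tested, 6.1% were lower in the first comparison and 5.69% in the last, and 3.73% were higher and 3.95% lower in the second. Each library labelled WT, replicate 2 alone included, had a higher sum than every PS19 library. The 12 endothelial markers summed to 267 and 257 CPM in WT, 191 and 197 CPM in Tau + vehicle and 189 and 248 CPM in Tau + UNC0642. In the 3 comparisons 6, 1 and 4 of 12 were called, where 9.81%, 7.69% and 9.47% of all genes tested were. The calls were higher between treated and untreated Tau and lower in the other comparisons. Each library labelled WT again had a higher sum than every PS19 library. No fibroblast or endothelial marker was at 0 in any library. Choroid plexus markers summed to 3.36 to 6.07 CPM, and up to 2 of the 6 had no count in a library. Unless stated otherwise, the part of these markers in the results below was not tested.

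Among the 15 ligands tested, 3 were called lower in Tau than in WT and 0 higher, where 6.1% and 3.72% of all genes tested were. Wnt7a was at 10.8 and 11.01 CPM in the pair labelled WT, 8.80 and 6.98 CPM in Tau + vehicle and 7.93 and 8.03 CPM in Tau + UNC0642. All 4 PS19 libraries were below both libraries labelled WT, and the 2 treated libraries lay between the 2 untreated ones. Its log2 fold change was -0.46 (95% CI -0.83 to -0.08, unadjusted p = 0.0211, adjusted p = 0.339) for Tau against WT and -0.45 (unadjusted p = 0.0238) for UNC0642-treated Tau against WT, with 0.01 between treated and untreated Tau. The Tau call held without the library labelled WT replicate 1 (-0.47) and was lost without the library labelled WT replicate 2 (-0.44) or the Tau replicate 2 library (-0.30). The call of treated Tau against WT was lost without the library labelled WT replicate 2 (-0.43) and without either UNC0642 library (-0.44 and -0.46), and was -0.47 and still called without the library labelled WT replicate 1. With the sex term the Tau value was -0.47 and called, and that of treated Tau was -0.43 and not called.

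Wnt5a, a ligand known for signalling that does not need β-catenin, was at 10.7 and 8.40 CPM in the pair labelled WT, 7.15 and 5.38 CPM in Tau + vehicle and 6.33 and 7.10 CPM in Tau + UNC0642. As for Wnt7a, no PS19 library reached the lower of the libraries labelled WT. The log2 fold change was -0.60 (95% CI -1.05 to -0.14, unadjusted p = 0.0151, adjusted p = 0.315) for Tau against WT and -0.51 (unadjusted p = 0.0334) for treated Tau against WT. The first call was lost without the library labelled WT replicate 1 (-0.41) or without the Tau replicate 2 library (-0.42). The second was lost without the library labelled WT replicate 1 (-0.32) or either UNC0642 library (-0.43 and -0.59). With the sex term the first was -0.41 and not called, and the second -0.67 and called.

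Wnt6 was scarce, at 1.97 and 0.781 CPM (50 and 20 counts) in the pair labelled WT, 0.501 and 0.229 CPM (14 and 4 counts) in Tau + vehicle and 1.18 and 0.706 CPM in Tau + UNC0642. The Tau + vehicle libraries were the 2 lowest. It differed by a log2 fold change of -1.83 (95% CI -3.21 to -0.45, unadjusted p = 0.0139, adjusted p = 0.312) for Tau against WT and 1.27 (95% CI -0.18 to 2.72, unadjusted p = 0.0779, not called) for treated against untreated Tau. Without the library labelled WT replicate 1, which was the highest, the first value was -1.03 and not called. It was not called without the Tau replicate 2 library (-1.45) or with the sex term (-1.02) either.

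Wnt10a, a ligand of the β-catenin route, was higher after UNC0642 than in either other group. Its levels were 8.40 and 7.93 CPM in the pair labelled WT, 8.83 and 7.04 CPM in Tau + vehicle and 12.4 and 11.5 CPM in Tau + UNC0642. WT and Tau overlapped, and both treated libraries were above the other 4. The fitted log2 fold change was 0.58 (95% CI 0.21 to 0.96, unadjusted p = 0.00605, adjusted p = 0.415) against untreated Tau, 0.55 (unadjusted p = 0.00797, adjusted p = 0.247) against WT, and -0.03 between untreated Tau and WT. Its share of the ligand level per kb was 9.46% in WT, 9.87% in Tau and 15.1% in treated Tau. Both calls held when any 1 of the 6 libraries was left out, with values of 0.43 to 0.76 and 0.50 to 0.61. With the sex term the difference from untreated Tau was 0.50 and no longer called (unadjusted p = 0.127), and that from WT was 0.51 and still called.

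Wnt9b rested on a handful of counts, 8 and 2 in the pair labelled WT, 2 and 0 in Tau + vehicle and 8 and 10 in Tau + UNC0642, all of them even. The library labelled WT replicate 1 had as many counts as UNC0642 replicate 1. Since the gene entered the test only through the 2 treated libraries, its call in treated against untreated Tau is a description, and no ratio or interval is given.

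Wnt2 and Wnt9a were called only between UNC0642-treated Tau and WT. Wnt2 was at 4.57 CPM in both of the pair labelled WT, 5.26 and 6.13 CPM in Tau + vehicle and 6.45 and 6.22 CPM in Tau + UNC0642, a log2 fold change of 0.47 (unadjusted p = 0.0397, adjusted p = 0.385). Its PS19 libraries were all above WT, but the call was lost without either library labelled WT (0.47 in each case), without either UNC0642 library (0.44 and 0.50) and with the sex term (0.47). Wnt9a was at 21.2 and 23.8 CPM in WT, 21.3 and 16.1 CPM in Tau + vehicle and 16.5 and 18.8 CPM in Tau + UNC0642, a log2 fold change of -0.35 (unadjusted p = 0.0444, adjusted p = 0.398). The treated libraries were below WT and within the spread of untreated Tau, and the call was lost without the library labelled WT replicate 2 or UNC0642 replicate 1 (-0.26 in each case) and with the sex term (-0.26). It held without the library labelled WT replicate 1 (-0.43). Without the Tau replicate 1 library, Wnt9a was called lower in Tau than in WT as well (-0.48).

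Wnt7b, the leading ligand, was at 53.8 and 59.4 CPM in the pair labelled WT, 65.4 and 42.6 CPM in Tau + vehicle and 44.9 and 49.5 CPM in Tau + UNC0642. The untreated Tau libraries spanned all the others, and none of its 3 log2 fold changes (-0.06, -0.20 and -0.26) was called. Its spread within Tau + vehicle decided what was seen: without the Tau replicate 1 library Wnt7b was called lower in Tau than in WT (-0.41), and without the Tau replicate 2 library it was called lower in treated than in untreated Tau (-0.47). The other 7 tested ligands (Wnt1, Wnt2b, Wnt3, Wnt4, Wnt5b, Wnt10b and Wnt16) were not called in any comparison with all libraries in. The highest of them was Wnt4, at 12.3 to 20.3 CPM, with a log2 fold change of 0.37 (95% CI -0.02 to 0.75) for Tau against WT. It was called higher in Tau without the library labelled WT replicate 2 (0.51) or Tau replicate 2 (0.59), and lower in treated than in untreated Tau without Tau replicate 2 (-0.44). Wnt5b had 14 to 56 counts in a library. It was called lower in treated Tau than in WT without the library labelled WT replicate 2 (-1.19) or UNC0642 replicate 1 (-1.57). It was also called lower than in untreated Tau without the latter (-1.30). Wnt10b was scarce, with 30 and 10 counts in the pair labelled WT, 18 and 10 in Tau + vehicle and 6 and 7 in Tau + UNC0642. It was called lower in treated Tau than in WT without the library labelled WT replicate 2 (-1.82). That fit leaves only the doubtful library as WT.

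**Figure D3:**
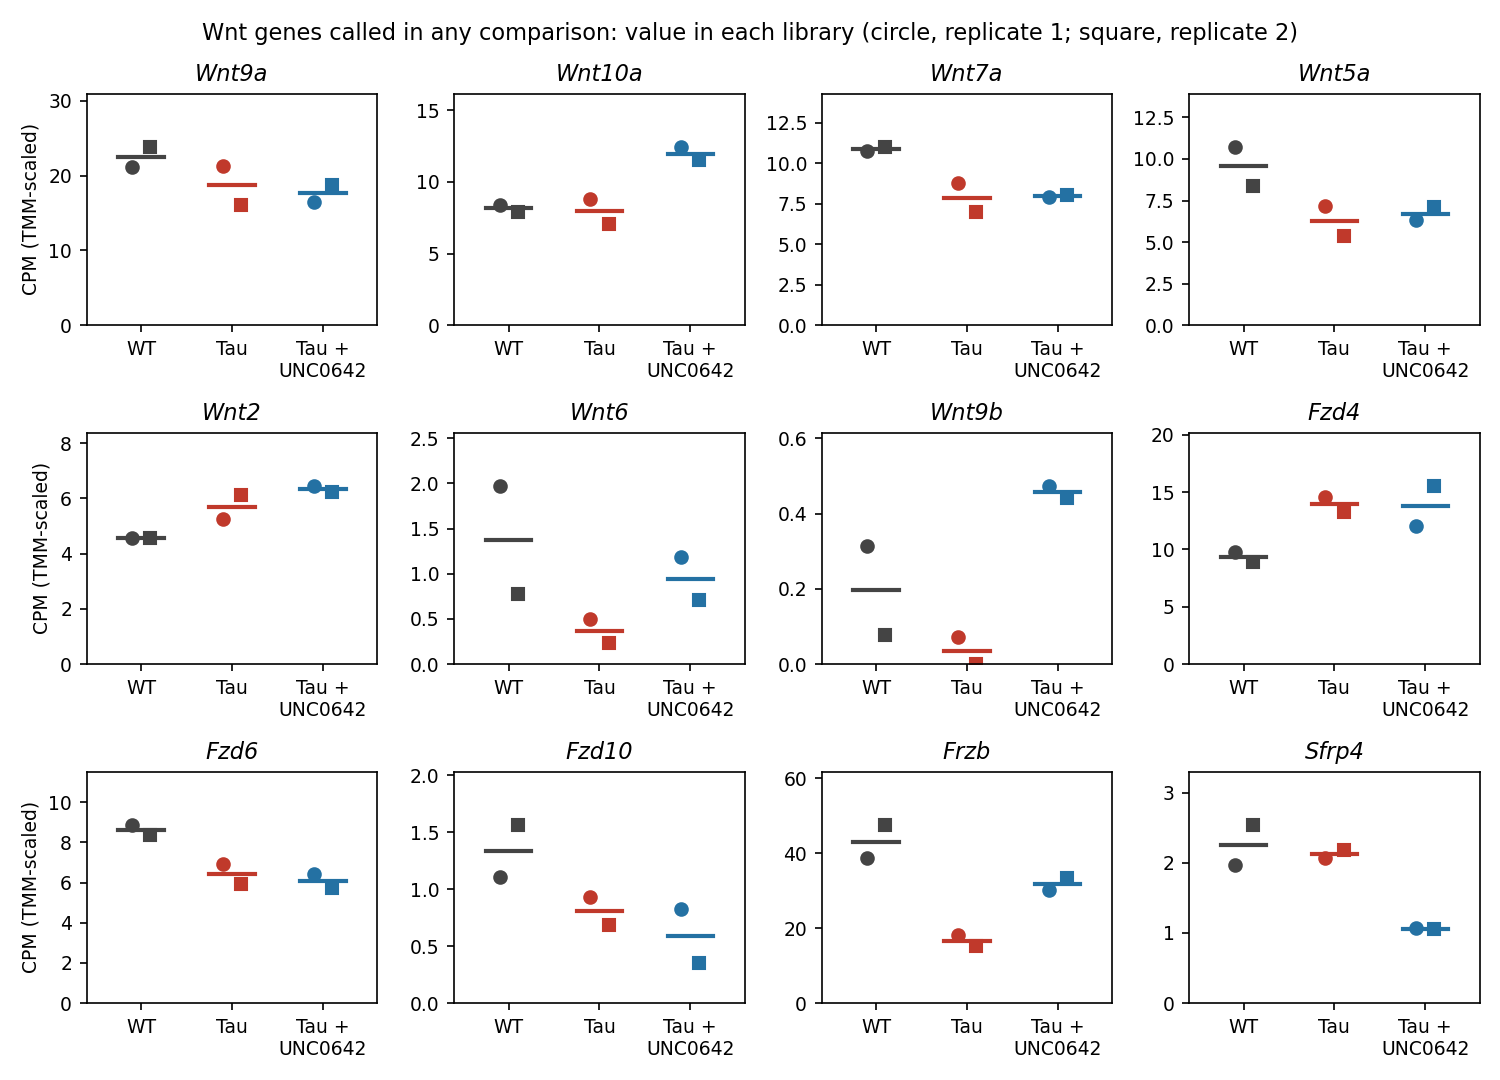
CPM in each library of the 12 members called in any comparison, with circles for replicate 1, squares for replicate 2 and bars for the group mean; every axis starts at 0. Frzb is lowest in the 2 Tau + vehicle libraries (18.2 and 15.2 CPM), Wnt10a highest in the 2 UNC0642 libraries (12.4 and 11.5 CPM), and Fzd4 lower in both libraries labelled WT (9.78 and 8.91 CPM) than in all others.

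Of the 10 Frizzled receptors, all tested, Fzd4 was the 1 called higher in Tau than in WT and Fzd6 the 1 called lower (3.72% and 6.1% of all genes tested). Fzd4 is the receptor for the secreted ligand norrin (Ndp) as well as for Wnts and is known for its role in retinal and brain vessels. It was at 9.78 and 8.91 CPM in the pair labelled WT, 14.6 and 13.3 CPM in Tau + vehicle and 12.1 and 15.5 CPM in Tau + UNC0642. Every PS19 library was above both libraries labelled WT, and treated and untreated libraries overlapped. On the log2 scale the fold change was 0.58 (95% CI 0.22 to 0.94, unadjusted p = 0.00461, adjusted p = 0.252) for Tau against WT, 0.57 (unadjusted p = 0.00536, adjusted p = 0.22) for treated Tau against WT, and -0.01 (95% CI -0.37 to 0.34) between treated and untreated Tau. The first call held when any 1 library was left out (0.51 to 0.65), without the library labelled WT replicate 1 among them (0.65). It held as well with the sex term (0.65), which makes the same comparison as leaving out that library. The second was lost without the UNC0642 replicate 2 library (0.37) and held without the library labelled WT replicate 1 (0.64) and with the sex term (0.50). Relative to the summed endothelial markers, Fzd4 was 3.66% and 3.47% in WT, 7.64% and 6.75% in Tau + vehicle and 6.39% and 6.25% in Tau + UNC0642.

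**Figure D4:**
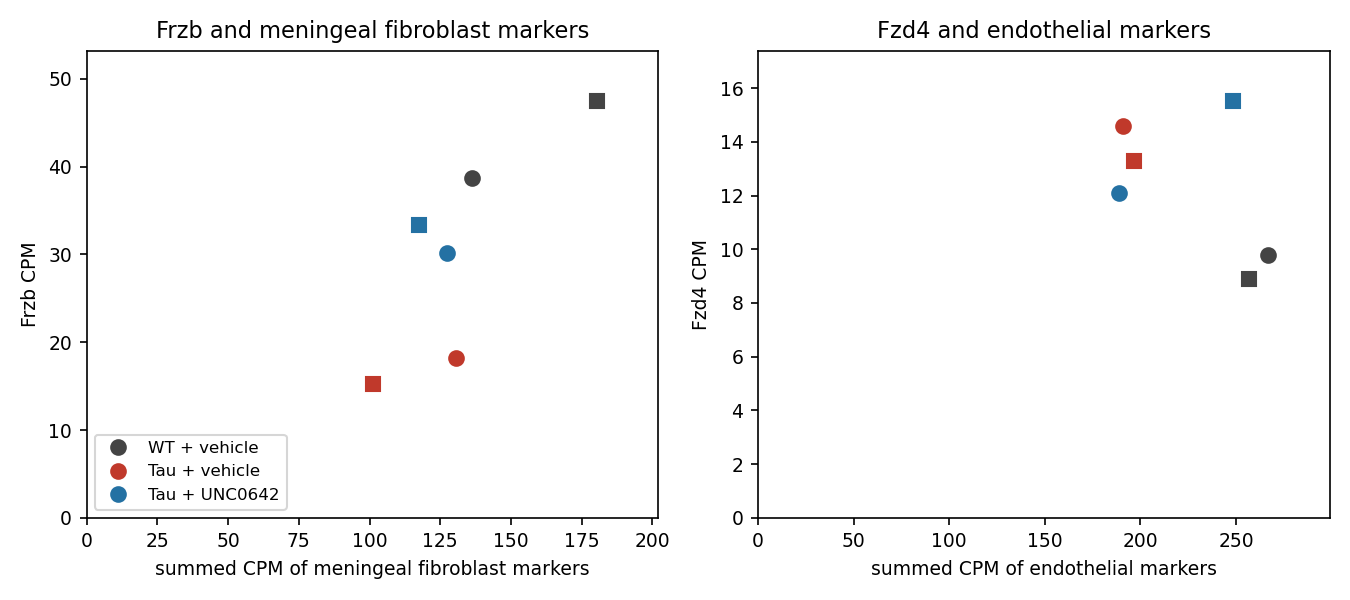
Frzb against the summed CPM of 18 meningeal fibroblast markers (left) and Fzd4 against that of 12 endothelial markers (right), with 1 point per library (circles, replicate 1, and squares, replicate 2) and axes from 0. Frzb is at 18.2 and 15.2 CPM in Tau + vehicle, where the fibroblast markers sum to 131 and 101 CPM. In Tau + UNC0642 Frzb is at 30.2 and 33.3 CPM and these markers sum to 127 and 118 CPM. Fzd4 is lowest in the 2 libraries labelled WT, which have the highest endothelial marker sums. The part of the markers was not tested.

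The sequence before the gene start is shown for Fzd4 and Wnt7a, a Frizzled and a ligand that were called against WT in opposite directions in both treated and untreated Tau. Both stretches are rich in CpG, the dinucleotide written in capitals, and end at the base before the gene's first annotated exon in the GRCm38 build (sequences from RefSeq, GRCm38.p6). The Fzd4 stretch is chr7:89404116-89404354 on the plus strand, with 24 CpG in 239 bases, and the Wnt7a stretch is chr6:91411364-91411603 on the minus strand, with 32 CpG in 240 bases.
Fzd4: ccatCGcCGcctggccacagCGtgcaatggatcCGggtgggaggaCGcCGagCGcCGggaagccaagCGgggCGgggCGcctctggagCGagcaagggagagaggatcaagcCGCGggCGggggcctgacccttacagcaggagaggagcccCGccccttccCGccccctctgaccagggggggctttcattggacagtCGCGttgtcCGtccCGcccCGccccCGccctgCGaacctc
Wnt7a: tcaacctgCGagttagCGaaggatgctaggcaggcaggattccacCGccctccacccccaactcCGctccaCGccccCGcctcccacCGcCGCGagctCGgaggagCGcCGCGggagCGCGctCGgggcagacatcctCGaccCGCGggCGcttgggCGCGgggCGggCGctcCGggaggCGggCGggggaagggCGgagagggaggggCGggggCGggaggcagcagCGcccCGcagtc
The 250 bases before the RefSeq start, of which 11 and 10 lie in the annotated exon, held 25 CpG for Fzd4 and 34 for Wnt7a, against a median of 21 over the windows of the 31 members found in the promoter table and 6 over all 32851 windows. Words that TCF and LEF proteins are known to bind were also sought, as CTTTG followed by 2 letters that are each A or T, on either strand. They stood before 6 of the 31 members (Wnt5b, Wnt11, Fzd7, Dkk1, Lef1 and Tcf7l2), or 19.4%, against 16.8% of all 27025 genes in the table. Neither Fzd4 nor Wnt7a had a match in its 250 bases. Of these 6, Wnt11 and Dkk1 were too low to be tested and the other 4 were not called in any comparison.

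Fzd6, a Frizzled known from planar cell polarity, went the other way from Fzd4. It was at 8.87 and 8.36 CPM in the pair labelled WT, 6.94 and 5.95 CPM in Tau + vehicle and 6.45 and 5.73 CPM in Tau + UNC0642. Both PS19 groups were below WT and overlapped each other. The log2 fold change was -0.41 (95% CI -0.81 to -0.01, unadjusted p = 0.0438, adjusted p = 0.394) for Tau against WT and -0.50 (95% CI -0.91 to -0.10, unadjusted p = 0.0195, adjusted p = 0.316) for treated Tau against WT. The first call was lost without either library labelled WT (-0.37 without replicate 1 and -0.45 without replicate 2), without Tau replicate 2 (-0.31) and without UNC0642 replicate 1 (-0.41). The second was lost without the library labelled WT replicate 1 (-0.46) and without UNC0642 replicate 2 (-0.42). With the sex term the first was -0.37 and not called, and the second -0.54 and called.

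Fzd10 was scarce, at 1.10 and 1.56 CPM in the pair labelled WT, 0.930 and 0.687 CPM in Tau + vehicle and 0.829 and 0.353 CPM in Tau + UNC0642, with 8 to 40 counts in a library. Both PS19 groups were below WT, and it was called only in treated Tau against WT (log2 fold change -1.21, 95% CI -2.38 to -0.04, unadjusted p = 0.0427, adjusted p = 0.395). That call was lost without the library labelled WT replicate 2 (-0.94), without UNC0642 replicate 2 (-0.68) and with the sex term (-0.94), and held without the library labelled WT replicate 1 (-1.44). No Frizzled was called between treated and untreated Tau, where the 10 log2 fold changes ran from -0.51 to 0.35.

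Fzd3, the most abundant Frizzled, was at 301 and 368 CPM in the pair labelled WT, 399 and 358 CPM in Tau + vehicle and 363 and 342 CPM in Tau + UNC0642. The groups overlapped, and the log2 fold changes of 0.18, -0.10 and 0.07 were not called, although Tau was called higher (0.33) when the library labelled WT replicate 2 was left out. Fzd1 was at 13.0 and 13.7 CPM in WT, 16.9 and 13.5 CPM in Tau + vehicle and 18.3 and 15.1 CPM in Tau + UNC0642. Its treated libraries were above WT by a log2 fold change of 0.32 (95% CI -0.02 to 0.67), which was not called (unadjusted p = 0.0616) but was when UNC0642 replicate 2 (0.46) or either Tau + vehicle library (0.32 in each case) was left out. Fzd2, Fzd5, Fzd7, Fzd8 and Fzd9 were not called with all libraries in, at 1.55 to 7.15 CPM. Fzd5 was at 4.02 CPM in the library labelled WT replicate 1 and at 1.55 to 2.07 CPM in the other 5, and was called lower in Tau (-1.32) and treated Tau (-0.97) than in WT when the library labelled WT replicate 2 was left out.

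The co-receptors were not called in any comparison. Lrp6 was at 100 and 109 CPM in the pair labelled WT, 107 and 104 CPM in Tau + vehicle and 101 and 105 CPM in Tau + UNC0642. The groups overlapped, and the fold was 1.00 (95% CI 0.889 to 1.14) for Tau against WT and 0.98 (95% CI 0.866 to 1.11) for treated against untreated Tau. The log2 fold change for Tau against WT was -0.06 without the library labelled WT replicate 1. Lrp5 was at 6.15 and 5.12 CPM in WT, 4.65 and 4.01 CPM in Tau + vehicle and 4.14 and 4.23 CPM in Tau + UNC0642. Its 4 PS19 libraries were all below WT, with a log2 fold change of -0.37 (95% CI -0.86 to 0.11, unadjusted p = 0.118) for Tau and -0.43 (95% CI -0.92 to 0.07, unadjusted p = 0.0825) for treated Tau, or -0.24 and -0.29 without the library labelled WT replicate 1.

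Frzb, the antagonist of Sfrp type that is encoded on chromosome 2 (80411970 to 80447625, minus strand, GRCm38), showed the clearest differences of any member. It was at 38.7 and 47.5 CPM in the pair labelled WT, 18.2 and 15.2 CPM in Tau + vehicle and 30.2 and 33.3 CPM in Tau + UNC0642. The 3 groups did not overlap, with WT highest and untreated Tau lowest. Tau was below WT by a log2 fold change of -1.36 (SE 0.137, fold 0.389, 95% CI 0.315 to 0.481, adjusted p = 0.00861). Treated Tau was above untreated Tau by 0.92 (SE 0.138, fold 1.90, 95% CI 1.53 to 2.34, unadjusted p = 5e-05, adjusted p = 0.0927), and below WT by a log2 fold change of -0.44 (95% CI -0.73 to -0.14, unadjusted p = 0.00772, adjusted p = 0.244). The first 2 of these differences share the low Tau + vehicle libraries.

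The Frzb calls of the first 2 comparisons held when any 1 library was left out, at -1.50 to -1.20 and at 0.80 to 1.06. Without the library labelled WT replicate 1 the Tau difference was -1.50, and without Tau replicate 2 it was -1.24. With the sex term it was -1.50 too, since that fit sets Tau against the library labelled WT replicate 2 alone. The difference of treated from untreated Tau was 0.80 without Tau replicate 2 and 1.22 with the sex term. The difference of treated Tau from WT was lost without the library labelled WT replicate 2 (-0.28), without UNC0642 replicate 1 (-0.37) and with the sex term (-0.28), and was -0.58 without the library labelled WT replicate 1. Relative to the summed meningeal fibroblast markers, Frzb was 28.4% and 26.3% in WT, 13.9% and 15.1% in Tau + vehicle and 23.7% and 28.3% in Tau + UNC0642. On this scale Tau + vehicle was below all 4 other libraries, and treated Tau and WT overlapped. Relative to the summed endothelial markers it was 14.5% and 18.5%, 9.52% and 7.74%, and 16.0% and 13.4% in the same order. As a share of all antagonists per kb, Frzb was 6.41% in WT, 2.35% in Tau and 4.08% in treated Tau.

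Sfrp4, another secreted Frizzled-related antagonist, was lower after UNC0642. It was at 1.97 and 2.54 CPM in the pair labelled WT, 2.07 and 2.18 CPM in Tau + vehicle and 1.07 and 1.06 CPM in Tau + UNC0642, or 18 to 65 counts. WT and untreated Tau overlapped, and both treated libraries were below them. The fitted log2 fold change was -0.99 (95% CI -1.76 to -0.23, unadjusted p = 0.0158, adjusted p = 0.467) against untreated Tau and -1.08 (95% CI -1.84 to -0.32, unadjusted p = 0.00956, adjusted p = 0.262) against WT, with -0.09 between untreated Tau and WT. The first call was lost without UNC0642 replicate 2 (-0.99), the second without the library labelled WT replicate 2 (-0.89; -1.26 and called without replicate 1), and both with the sex term (-0.63 and -0.89). As a percent of the fibroblast markers, Sfrp4 was 1.45 and 1.41 in WT, 1.59 and 2.15 in Tau + vehicle and 0.836 and 0.901 in Tau + UNC0642.

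Dkk3, the most abundant antagonist, was at 680 and 595 CPM in the pair labelled WT, 691 and 711 CPM in Tau + vehicle and 736 and 776 CPM in Tau + UNC0642. Its levels did not overlap between the 3 groups. The fold was 1.10 (95% CI 0.969 to 1.249) for Tau against WT, 1.08 (95% CI 0.95 to 1.23) for treated against untreated Tau and 1.19 (95% CI 1.05 to 1.35, unadjusted p = 0.0133, adjusted p = 0.282) for treated Tau against WT, below the fold of 1.2 that a call needs. The last passed it without the library labelled WT replicate 1 (log2 fold change 0.35) or UNC0642 replicate 1 (0.29). The other 4 antagonists tested (Sfrp1, Sfrp2, Dkk2 and Wif1) were not called with all libraries in. Sfrp1 was at 13.0 to 20.9 CPM, with a log2 fold change of -0.04 for Tau against WT and -0.16 for treated against untreated Tau. Without UNC0642 replicate 2, Sfrp1 was called lower in treated Tau than in untreated Tau (-0.49) and WT (-0.53). The other 3 were at most 2.61 CPM.

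None of the 5 intracellular genes was called in any comparison. Ctnnb1, which encodes β-catenin, was at 458 and 435 CPM in the pair labelled WT, 484 and 423 CPM in Tau + vehicle and 453 and 452 CPM in Tau + UNC0642. The untreated Tau libraries spanned all the others, and the fold was 1.01 (95% CI 0.894 to 1.15) for Tau against WT and 0.999 (95% CI 0.88 to 1.13) for treated against untreated Tau. Axin2, the feedback target of the β-catenin route, was at 23.2 and 25.9 CPM in WT, 21.7 and 27.8 CPM in Tau + vehicle and 23.4 and 24.97 CPM in Tau + UNC0642. Its groups overlapped too, with a fold of 1.01 (95% CI 0.816 to 1.24) for Tau against WT and 0.982 (95% CI 0.795 to 1.21) for treated against untreated Tau. Without the library labelled WT replicate 1 the log2 fold change for Tau against WT was 0.06 for Ctnnb1 and -0.07 for Axin2. Axin1, at 19.9 to 26.5 CPM, had a log2 fold change of -0.24 (95% CI -0.52 to 0.05) for Tau against WT. For Lef1 and Tcf7l2 the intervals were wide, from 0.458 to 1.35 and from 0.553 to 1.60 in fold for Tau against WT.

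A list of 70 other genes of the pathway, 31 of secretion and the cell surface and 39 intracellular, gave 64 tested genes. Of these, 10 were called between Tau and WT (2 higher and 8 lower, 15.6%), 6 between treated and untreated Tau (1 higher and 5 lower, 9.38%) and 13 between treated Tau and WT (1 higher and 12 lower, 20.3%), where 9.81%, 7.69% and 9.47% of all genes tested were called. The counts were 6, 7 and 12 without the library labelled WT replicate 1. In the first comparison 8 of the 27 tested surface genes were called (1 higher and 7 lower) and 2 of the 37 intracellular genes, against 3 of 28 and 3 of 38 without the library labelled WT replicate 1. None had an adjusted p under 0.05 in edgeR's test, with 13, 8 and 16 at an unadjusted p under 0.05, and the DESeq2 Wald test called 5, 2 and 11. The median log2 fold changes were -0.08, -0.07 and -0.12.

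Cthrc1, a secreted protein that is known to favour planar polarity signalling by Wnt and Frizzled, had the smallest unadjusted p of the list. It was at 1.46 and 0.976 CPM in the pair labelled WT, 4.40 and 4.18 CPM in Tau + vehicle and 0.947 and 1.28 CPM in Tau + UNC0642. Both untreated Tau libraries stood above the other 4, and WT and treated Tau overlapped. Its fitted log2 fold change was 1.81 (95% CI 1.08 to 2.54, adjusted p = 0.0831) for Tau against WT and -1.93 (95% CI -2.68 to -1.17, adjusted p = 0.144) for treated against untreated Tau. Both calls held when any 1 library was left out and with the sex term. As a percent of the summed striatal markers, Cthrc1 was 1.47 and 1.16 in WT, 4.24 and 1.85 in Tau + vehicle and 1.05 and 1.44 in Tau + UNC0642, and the part of these markers was not tested.

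Reck, the membrane protein that presents Wnt7a and Wnt7b to Frizzleds on vessels, was at 7.61 and 7.15 CPM in the pair labelled WT, 5.08 and 4.41 CPM in Tau + vehicle and 6.57 and 7.23 CPM in Tau + UNC0642. Untreated Tau was below the other 4 libraries, by a log2 fold change of -0.63 against WT (unadjusted p = 0.00721, adjusted p = 0.273), and treated Tau was above it by 0.54 (unadjusted p = 0.0182, adjusted p = 0.479). The first call held without the library labelled WT replicate 1 (-0.59), and the second was lost without Tau replicate 2 (0.44) or UNC0642 replicate 2 (0.46) and with the sex term (0.45). As a percent of the summed endothelial markers, Reck was 2.85 and 2.78 in WT, 2.66 and 2.24 in Tau + vehicle and 3.48 and 2.91 in Tau + UNC0642. As a percent of the fibroblast markers it was 5.58 and 3.96 in WT, 3.88 and 4.36 in Tau + vehicle and 5.16 and 6.15 in Tau + UNC0642. Untreated Tau was lowest on the first scale and overlapped WT on the second. Lgr4, a receptor for R-spondins, was at 68.0 and 64.1 CPM in WT, 54.6 and 50.6 CPM in Tau + vehicle and 55.5 and 60.3 CPM in Tau + UNC0642. It was lower in Tau than in WT (log2 fold change -0.33, unadjusted p = 0.00487, adjusted p = 0.256) whichever library was left out.

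Lgr6, its relative, was called lower in Tau (-1.67) and in treated Tau (-2.11) than in WT through 1 library. The library labelled WT replicate 1 was at 18.1 CPM and the other 5 at 2.38 to 3.47 CPM, and without it the values were -0.01 and -0.45 and not called. The first was also not called without either Tau library (-1.72 and -1.63). Lgr5, outside the 10 genes of smallest p and looked at for this pattern after its values were seen, was at 15.02 CPM in the same library and at 2.03 to 4.004 CPM in the others. Apcdd1, a membrane inhibitor of the pathway, was at 17.2 and 15.1 CPM in WT, 13.5 and 11.05 CPM in Tau + vehicle and 10.4 and 9.40 CPM in Tau + UNC0642. Its 3 groups did not overlap, and it was lower in treated Tau than in WT by -0.71 (unadjusted p = 0.000935, adjusted p = 0.117), a call that held without any 1 library. For untreated Tau the value was -0.39 (unadjusted p = 0.0271), not called without the library labelled WT replicate 1 (-0.30) or Tau replicate 2 (-0.26).

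Prickle1, a core gene of planar cell polarity, was higher in both PS19 groups, at 107 and 106 CPM in the pair labelled WT, 129 and 132 CPM in Tau + vehicle and 134 and 128 CPM in Tau + UNC0642. On the log2 scale the fold change was 0.30 in each (unadjusted p = 0.00234 and 0.00212, adjusted p = 0.209 and 0.163), and both calls held when any 1 library was left out. Celsr2, a cadherin of the same route, was at 267 and 316 CPM in WT, 316 and 235 CPM in Tau + vehicle and 227 and 172 CPM in Tau + UNC0642. Its treated libraries were the 2 lowest. Its fitted log2 fold change was -0.47 (unadjusted p = 0.0133) against untreated Tau, not called without Tau replicate 1 (-0.24) or UNC0642 replicate 2 (-0.28), and -0.55 (unadjusted p = 0.00542) against WT, not called without UNC0642 replicate 2 (-0.36). Celsr3 was lower in treated Tau (65.6 and 69.5 CPM) than in WT (80.2 and 86.6 CPM) by -0.30, not called without the library labelled WT replicate 2 (-0.25) or UNC0642 replicate 1 (-0.26).

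Nkd1, a feedback antagonist that binds Dishevelled, was at 8.83 and 9.14 CPM in the pair labelled WT, 8.65 and 7.56 CPM in Tau + vehicle and 5.92 and 6.09 CPM in Tau + UNC0642. Both treated libraries were below the other 4. It was lower in treated Tau than in WT by -0.58 (unadjusted p = 0.00658, adjusted p = 0.235) whichever library was left out, and lower than in untreated Tau by -0.44 (unadjusted p = 0.0295), which was not called without Tau replicate 1 (-0.33), UNC0642 replicate 1 (-0.42) or UNC0642 replicate 2 (-0.46). Tle2, a Groucho co-repressor, was at 9.70 and 8.98 CPM in WT, 7.79 and 7.61 CPM in Tau + vehicle and 5.39 and 6.75 CPM in Tau + UNC0642, with no overlap between the groups. Treated Tau was lower than WT by -0.62 (unadjusted p = 0.00633, adjusted p = 0.234), not called without UNC0642 replicate 1 (-0.47).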

How the data were processed

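Counts per gene were analysed in 6 PFC libraries. The authors made them with Cutadapt, TopHat2 (to mouse RefSeq mRNAs) and featureCounts and deposited raw counts without normalization, with mm10 named as the build in the submitters' processing notes. Tool versions and the strand setting of counting are not given in the sources used here, so reads of overlapping genes cannot be separated. In 2 libraries 26 gene names stood as dates, and all 54429 genes were joined by position.

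Counts were fitted with edgeR 4.0.16 in R 4.3.3 (filterByExpr, minimum count 10, which left 20409 genes; TMM factors 0.966 to 1.04; quasi-likelihood test, all 6 libraries, 3 residual degrees of freedom). CPM are TMM-scaled. Confidence intervals (95%) come from the fitted coefficients. P-values set a difference between groups against the spread between the 2 libraries of a group, pooled over all groups. That spread takes in the pair labelled WT, whose libraries differ in sex pattern and perhaps in genotype. The quasi-likelihood fit moderates the pooled spread with that of all genes, so part of the precision is borrowed from other genes. Benjamini-Hochberg adjustment covered every gene in the fit. Exon lengths and coordinates came from GENCODE M21 (GRCm38), where all 46 members were found. Floors are 3 counts over a library's total and cover counting error of independent counts only. The procedure was tested on simulated data. Alternatives were DESeq2 1.42.0 (size factors and Wald test), library size alone, other filters and thresholds, a sex term, a replicate block, the 2 compared groups alone and each library left out, where a lone library was assumed to vary like the other groups.

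The members and lists were chosen with earlier results of these data known. Named are the members called in any comparison, the 2 of highest mean CPM per role, and the 10 pathway genes of smallest p among those called. The sequence before Frzb is not shown because most of its window lies in an exon.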

Additional observations from a re-analysis of the deposited data

How the results depend on the processing

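Of the 20 called values of members, all 20 kept their side of the threshold with DESeq2 size factors, 19 with library size alone, 18 without a filter, 17 of the 19 that were tested with the compared groups alone, 16 of 17 with at least 10 counts in every library, 13 with the DESeq2 Wald test and 8 with a sex term. None changed direction. The number of members called in Tau against WT was 6, and became 3 with a sex term, 3 at a fold of at least 1.5, 1 at an adjusted p under 0.05, and 3 to 8 with 1 library left out. In treated against untreated Tau it was 4, and became 0 at an adjusted p under 0.05 and 3 to 5 with 1 library left out. In treated Tau against WT it was 10, and became 4 with the DESeq2 Wald test, 6 with a sex term, 2 at a fold of at least 1.5, 0 at an adjusted p under 0.05, and 6 to 11 with 1 library left out. For the other pathway genes the first count (10) became 5 with the DESeq2 Wald test, 6 with a sex term, 5 at a fold of at least 1.5, 0 at an adjusted p under 0.05 and 6 to 12 with 1 library left out. The second (6) became 2, 2 and 0 with the Wald test, the higher fold and the adjusted p, and 4 to 14 with 1 library left out. The third (13) became 6 at the higher fold, 0 at the adjusted p, and 8 to 15 with 1 library left out. The members' median for Tau against WT (-0.09) was -0.213 to -0.0689 with 1 library left out, and that for treated against untreated Tau (-0.03) -0.09 to 0.06, so that its sign depended on the Tau libraries. Stricter thresholds leave fewer calls by construction. The cause of the other shifts, which went both ways with a library left out, was not tested. The shares of all genes called under these settings are not given here, so the counts cannot be set against them.

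With a replicate block the members called were 6, 5 and 7 in the 3 comparisons, and 3 of the 20 calls (Fzd10, Wnt2 and Wnt9a in treated Tau against WT) were lost. The numbers are only names here: the correlations of same-numbered libraries' deviations from their group means were -0.03, -0.02 and -0.00. Genes under about 10 counts a library, such as Wnt9b, are limited by depth.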
